A study of Mus musculus with 2 samples.

Results

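The genes described here run the entry into mitosis, its checkpoint and the start of DNA replication: Foxm1, Cdc25b, Bub1b, Pbk, Incenp, Depdc1b and Gins1. They were compared between D16 and D351, clones of mouse mesoangioblasts, which are vessel-associated progenitors of mesodermal tissues. Members were chosen by gene symbol, with their signals on these same arrays already known, so their differences are a description and carry no test. The array held all 7 member genes, on 10 probe sets, out of 7542 named genes. A probe set is the group of short oligonucleotides that reads 1 transcript. All 7 members reached the floor of 16.8, the median signal of both arrays pooled, on at least 1 array, as did 4922 named genes in total, which are called measured below.

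Both clones came from C57BL6 embryos. The dorsal aorta was taken at embryonic day 9.5, kept as an explant for 5 days and dissociated, and single cells were cloned by limiting dilution in RPMI with 20% fetal calf serum. During cloning the cells lay on primary embryonic fibroblasts treated with mitomycin C, an agent that stops the feeder cells from dividing, and growing clones were then expanded on gelatin. The labels give no treatment or genotype that separates the clones. Each clone gave 1 total RNA, read on 1 Affymetrix U74B array, so each group is 1 clone and 1 RNA sample, with no spread between replicates. The labels do not state passage, density or growth phase at harvest. Of a list of 21 mesoangioblast and vessel wall progenitor markers, 7 had a named probe set and 5 were measured. Cd44 read 1164.5 in D16 and 1092.5 in D351. Lower in D351 were Cspg4 (83.3 and 26.1), Met (259.8 and 121.5) and Gata4 (54.3 and 0.5), and Flt1 was higher (10.3 and 44.5). Eng (7.5 and 2.5) and Itga4 (1.4 and 0.8) lay under the floor in both clones. Kdr, Cd34 and Kit were not analysed here, so the label rests on few of its markers.

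Progression from G2 into mitosis is driven by cyclin-dependent kinase 1. Cdc25 phosphatases remove the inhibitory phosphates from that kinase, and Foxm1 is the forkhead factor that, together with the MuvB complex, turns on many genes of late G2 and mitosis. BubR1, the product of Bub1b, holds back the anaphase-promoting complex until chromosomes are attached to the spindle. Transcripts of such genes peak in dividing cells and are low in resting ones. A signal from a culture averages over its cells, so fewer dividing cells and less transcript per dividing cell cannot be told apart.

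The promoters of mitotic genes often carry a CCAAT box, read by NF-Y, and a cell cycle homology region (CHR), read by the MuvB subunit Lin54. Promoter windows of 250 bases before to 50 bases after the transcript start came from a table of RefSeq sequences (GRCm38.p6). Bub1b and Cdc25b were matched in the table used here, and Foxm1, Pbk, Incenp, Depdc1b and Gins1 were not, so the matched pair is shown as an example of members lower in D351. The Bub1b window is chr2:118597961-118598260 and the Cdc25b window chr2:131186698-131186997, both on the + strand and printed 5′ to 3′, with capitals marking CCAAT and CHR letters on either strand.
Bub1b: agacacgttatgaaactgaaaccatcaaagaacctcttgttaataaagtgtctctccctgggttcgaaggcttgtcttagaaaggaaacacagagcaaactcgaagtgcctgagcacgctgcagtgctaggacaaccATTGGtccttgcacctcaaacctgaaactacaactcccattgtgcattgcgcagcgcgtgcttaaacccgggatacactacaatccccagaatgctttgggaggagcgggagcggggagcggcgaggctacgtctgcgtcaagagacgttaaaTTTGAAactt
Cdc25b: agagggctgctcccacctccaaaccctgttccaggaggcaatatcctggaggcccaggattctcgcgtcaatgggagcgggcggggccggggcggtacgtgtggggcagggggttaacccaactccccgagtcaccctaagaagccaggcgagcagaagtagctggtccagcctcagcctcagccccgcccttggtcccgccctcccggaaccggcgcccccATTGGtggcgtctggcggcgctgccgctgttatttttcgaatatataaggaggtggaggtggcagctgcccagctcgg

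The letters searched, on both strands, were CCAAT for the box, TTTGAA or TTTAAA for the CHR, and TTTCCCGC, TTTGGCGC or TTTCGCGC for E2F. The Bub1b window held CCAAT on the - strand, from 113 bases before the start, and TTTGAA on the + strand, 40 bases after it. The Cdc25b window held CCAAT on the - strand from 28 bases before the start, and no CHR letters of these spellings. Neither window held the E2F letters. Of all 32851 promoter windows, 37.4% held CCAAT, 27.6% a CHR spelling, 10.7% both and 1.84% an E2F spelling. A match of letters is a description of the sequence and not a measured site.

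In 6 of the 7 genes the signal was at least 3-fold lower in D351 than in D16, with Incenp as the exception. For Gins1 that fold is a bound set by the floor, since its D351 signal lay under it. The 2-fold rule picked the same number, 6 of 7, and no member was at least 2-fold higher in D351. Over all measured genes, D351 was lower by at least 2-fold in 8.57% and by at least 3-fold in 2.78%, and higher by at least 2-fold in 9.49%. Among genes at or above the floor on both arrays, 5 of 6 members and 343 of all 4065 genes were at least 2-fold lower. Nothing is read from the members' count against these shares, because the members were chosen with this contrast in view. The members' median log2 ratio of D351 over D16 was -1.80, that of all measured genes -0.01. Of the 10 probe sets, 9 were measured. At least 2-fold lower in D351 were 6 of those 9, beside 7.99% of all measured probe sets.

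**Figure D1:**
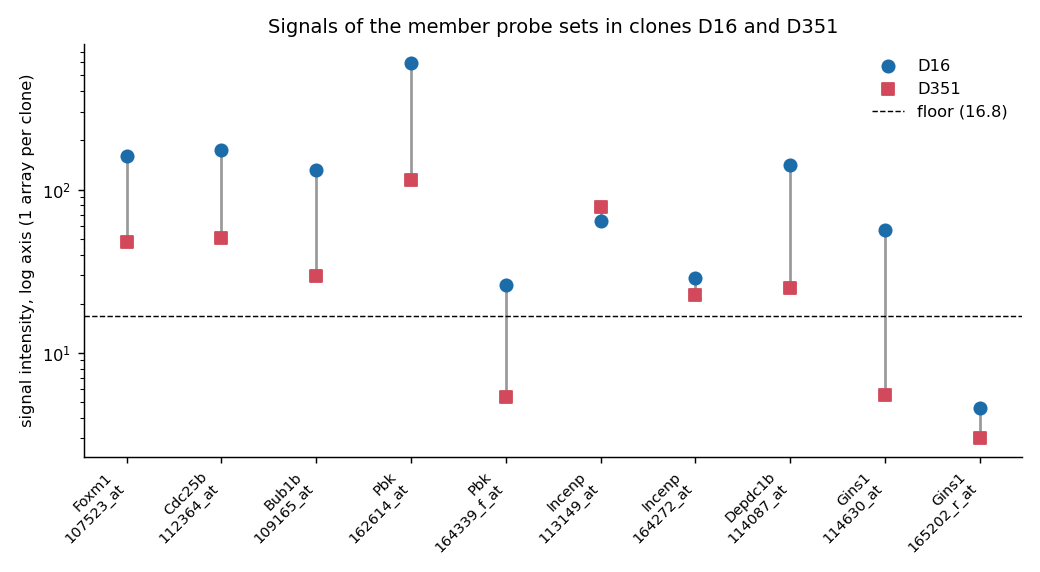
Signal intensity (log axis) of each member probe set in D16 (circles) and D351 (squares), with 1 array per clone and the floor of 16.8 as a dashed line. The first Incenp probe set (64.3 and 78.2) reads higher in D351. Gins1 on 114630_at and the second Pbk probe set drop below the floor in D351.

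Foxm1, the transcription factor of mitotic genes, read 160.8 in D16 and 47.8 in D351 on its 1 probe set (107523_at), a 3.36-fold lower signal (log2 ratio -1.75). Both values stood clear of the floor, so the ratio is measured on both sides. The gene lies on chromosome 6, where the median of 239 measured genes was 0.18. Relative to its chromosome the Foxm1 ratio was -1.93.

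Cdc25b, the phosphatase that starts the activation of cyclin-dependent kinase 1 at mitotic entry, read 175.6 and 50.5 (112364_at). D351 was 3.48-fold lower (log2 -1.80), close to the Foxm1 ratio. With the floor at 53.5 the Cdc25b ratio was also a bound, of at most -1.71. Bub1b, the checkpoint kinase-like protein of the kinetochore, read 132.2 and 29.5 (109165_at), 4.48-fold lower in D351 (log2 -2.16). Its D351 signal was 1.76 times the floor, and with the floor at the 75th percentile of both arrays (53.5) the ratio became a bound of at most -1.31. Both genes, like Gins1, are on chromosome 2, where 393 measured genes had a median of -0.12. With that median taken off, the ratios were -1.67 for Cdc25b, -2.04 for Bub1b and, as a bound, -1.64 for Gins1.

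Pbk, a mitotic serine/threonine kinase also known as TOPK, read 597.5 in D16 and 115.0 in D351 on 162614_at, so that D351 was lower by 5.20-fold (log2 -2.38). The second Pbk probe set, 164339_f_at, has the _f ending of probes shared with related sequences and read 26 and 5.4. D351 fell under the floor there, which gives a bound of at least 1.55-fold lower. With the floor at the 25th percentile (4.6) the second probe set had a log2 ratio of -2.27, next to -2.38 on the first. That value rests on a D351 signal not shown to be above background, so how well the Pbk probe sets agree in size is not known.

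Depdc1b, a DEP and RhoGAP domain protein whose transcript is high around G2 and mitosis, had the lowest ratio among the members measured on both arrays; the Gins1 ratio is a bound and cannot be ranked against it. It read 140.5 in D16 and 25 in D351 (114087_at), 5.62-fold lower (log2 -2.49), with D351 at 1.49 times the floor, and at most -1.39 with the floor at 53.5. Among the 4065 genes at the floor on both arrays, Depdc1b had the 13th lowest ratio, Pbk the 21st, Bub1b the 28th, Cdc25b the 75th, Foxm1 the 82nd and Incenp the 2783rd. The members were chosen with these ratios known, so the ranks are a description only. The Depdc1b paralogue Depdc1a, on an _i probe set, read 20.9 and 8.2, a log2 ratio of at most -0.32, and was named after its values were seen.

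Incenp, the scaffold of the chromosomal passenger complex that carries Aurora B to centromeres and the spindle midzone, did not follow the other members. It read 64.3 in D16 and 78.2 in D351 on 113149_at (1.22-fold higher, log2 0.28), and 28.6 and 22.5 on 164272_at (1.27-fold lower, log2 -0.35). The probe sets lay on opposite sides of equality, and their median was -0.03. A gap of 0.63 or more between probe sets occurred in 33.2% of the 1113 genes with a second measured probe set, whose median gap was 0.41, so the direction of Incenp is not settled by these arrays. Both probe sets stayed under 2-fold.

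Gins1, a subunit of the GINS complex that joins the MCM ring and Cdc45 in the replicative helicase, read 56.9 in D16 and 5.5 in D351 on 114630_at. The D351 value was under the floor, so D351 was at least 3.39-fold lower. With the floor at 4.6 the log2 ratio was -3.37, but the D351 signal it rests on was not shown to be above background, so the bound is the firmer statement. With the floor at the 75th percentile (53.5) the D16 value was just above it and the bound shrank to a log2 ratio of at most -0.09, which ends the 2-fold call. The other Gins1 probe set, 165202_r_at, an _r design made under relaxed rules, read 4.6 and 3.0, under the floor in both clones, and gave no ratio. The GINS partners on the array, named after their values were seen, had smaller differences. Gins3 read 36.4 and 21.8 (log2 -0.74) and Gins4 read 97.5 and 65.1 (log2 -0.58).

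**Figure D2:**
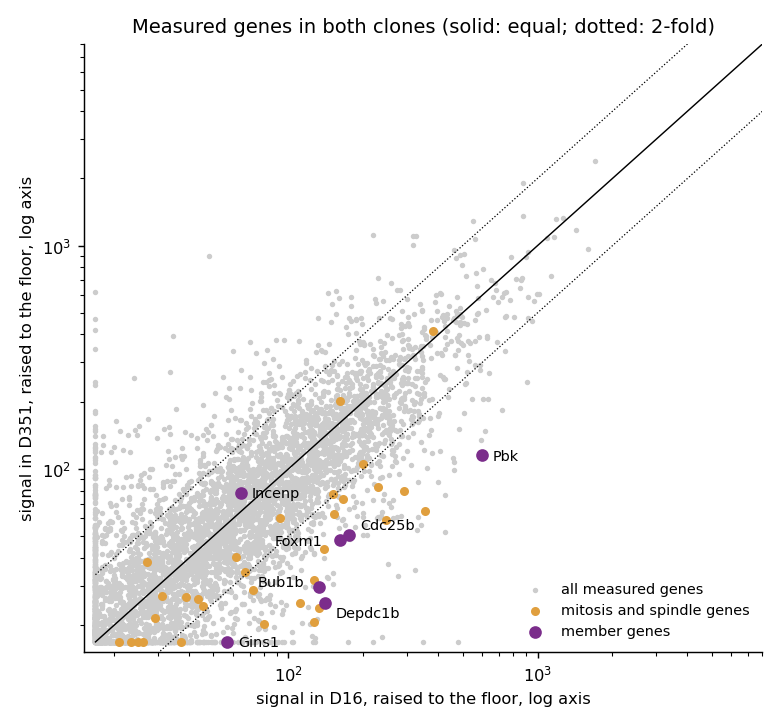
Signal of each measured gene in D16 (x) and D351 (y), both raised to the floor of 16.8, on log axes, with mitosis genes and members coloured; the solid line marks equal signal and dotted lines 2-fold. Incenp lies just above the solid line and the 6 other members below the lower dotted one.

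The lists that follow leave the members out. Some genes stand in several of these lists, so the counts of different lists overlap. They were drawn up with earlier results of these arrays known, so their direction is no independent evidence. Of 90 mitosis and spindle genes 36 were on the array and 31 were measured. In 14 of these the D351 signal was lower by at least 2-fold, beside 8.57% of all measured genes, and in 0 higher by as much. A ratio below 0 was read in 28, beside 2495 of all 4922 measured genes. The median log2 ratio of the list was -0.95. The gene with the lowest ratio was Ckap2l, a spindle pole protein, which read 126.1 and 20.6 (6.12-fold lower in D351) on its brightest probe set and had a ratio of at most -1.49 on another. The condensin subunits Ncapg (132.9 and 23.9) and Ncapg2 (353.1 and 64.7) were 5.56-fold and 5.46-fold lower. Spag5, which organises spindle poles, read 111.0 and 25.1 (4.42-fold lower), and Cep55, of the midbody, read 127.0 and 31.7 (4.01-fold). The kinesin Kif15 read 245.3 and 59.1 on an _f probe set (4.15-fold lower), with log2 ratios of at most -3.05 on a plain probe set and of -2.35 on a _g probe set. Bub3, Zwint and Psrc1 were the 3 genes with a ratio above 0, and each stayed under 2-fold; they were named after their values were seen.

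Replication genes also had ratios below 0. Of 80 genes 14 were on the array and 11 measured. Of these, 5 had at least 2-fold less signal in D351, beside 8.57% of all measured genes, and 0 at least 2-fold more. The median was -0.75 and all 11 lay below 0, beside 2495 of all 4922 measured genes. Clspn, the adaptor of the replication checkpoint kinase, read 80.8 and 25.9 (3.12-fold lower). The helicase Recql4 read 45.6 and 11.9 (at least 2.71-fold lower). Orc3, of the origin recognition complex, was 2.25-fold lower, Pole, the catalytic subunit of DNA polymerase epsilon, 2.15-fold, and the repressor E2f7 2.10-fold.

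**Figure D3:**
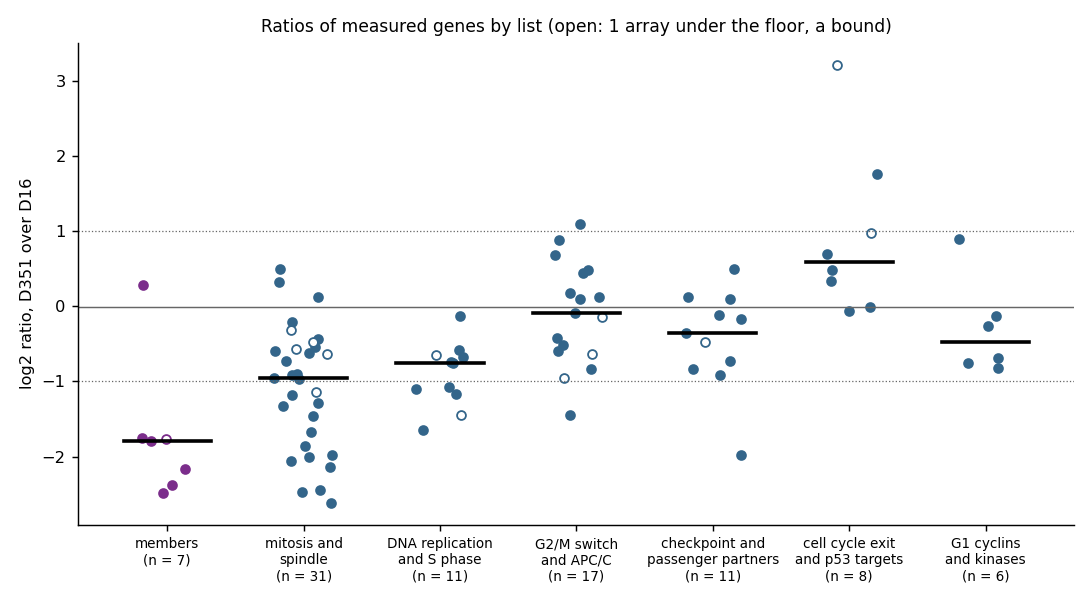
Log2 ratios of D351 over D16 for the members and for the measured genes of 6 lists; each point is a gene, the thick bar the median, open points are bounds and dotted lines mark 2-fold. The members' median lies at -1.80, the mitosis list at -0.95, and the list of G2/M switch and anaphase-promoting complex genes at -0.09.

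Genes that work around the members gave a mixed picture, as far as the array held them. A list of 46 genes held G2 to M switch genes, MuvB and E2F factors and subunits of the anaphase-promoting complex. Of these 19 were on the array and 17 were measured. In D351, 1 was at least 2-fold lower (8.57% of all measured genes) and 1 at least 2-fold higher (9.49%). The median was -0.09 and describes only the part of the list that the array carries. The lower one was Fbxo5, the inhibitor of the anaphase-promoting complex also called Emi1, with 94.4 and 34.7 (2.72-fold lower). The higher one was Nfyb, a subunit of the CCAAT-binding factor NF-Y, with 37.9 and 81.1 (2.14-fold). Of the MuvB subunits, which work with Foxm1, Lin54 read 90.3 and 50.5 (log2 -0.84) and Lin37 read 57.2 and 42.8 (log2 -0.42). Mybl2, the other mitotic partner of MuvB, was under the floor in both clones (13.3 and 8.1). The anaphase-promoting complex subunit Cdc27 read 219.0 and 239.0 (log2 0.13), with a log2 ratio of 0.27 on a dimmer probe set. Anapc7 read 189.2 and 178.3 (log2 -0.09), with -0.55 on a dimmer probe set. Lin54, Lin37, Mybl2, Cdc27 and Anapc7 were named after their values were seen.

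Of a list of 33 partners of Bub1b and Incenp 11 were on the array, and all 11 were measured. They were checkpoint and kinetochore proteins, phosphatase subunits, Sgo2a and Cbx5, with no other subunit of the passenger complex. The partners of Incenp within that complex were therefore not read here. Of the 11 genes 1 was at least 2-fold lower in D351, beside 8.57% of all measured genes. At least 2-fold higher were 0, and the median was -0.35. The lower gene was Kntc1, the Rod protein of the kinetochore complex that brings checkpoint proteins in, with 79.5 and 20.2 (3.94-fold lower). Kntc1, Bub3, Mad1l1, Zwint and Sgo2a are also in the mitosis list and were counted there. Bub3, which binds BubR1 in the checkpoint complex, read 27.1 and 38.3 (log2 0.50). That is under 2-fold, and with 1 array per clone its direction is not settled. Mad1l1, which recruits Mad2, read 198.5 and 105.0 (log2 -0.92). Bub3, Mad1l1, Sgo2a and Cbx5 were also named after their values were seen.

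Of a list of cell cycle exit genes and p53 targets 12 were on the array, 4 of them under the floor in both clones. Of the 8 measured genes, D351 was higher by at least 2-fold in 2, beside 9.49% of all measured genes, and lower by as much in 0. The median was 0.59. Pmaip1, which encodes the pro-apoptotic protein Noxa, read 0.9 and 156.0 (at least 9.29-fold higher), and Trp53inp1, a p53-induced stress protein, read 110.7 and 373.4 (3.37-fold higher). In the list of G1 cyclins and kinases, 6 genes were measured, 0 passed 2-fold in either direction, and the median was -0.48.

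Promoter letters of the mitosis list could be set beside the ratios. Of 84 RefSeq windows for 76 genes of that list, 72.6% held a CHR spelling and 70.2% CCAAT. Among its genes measured here, a CHR spelling was found in 11 of the 13 with a window that were at least 2-fold lower in D351 and in 8 of the 13 others. CCAAT was found in 8 of 13 and 11 of 13, and an E2F spelling in 4 of 13 and 1 of 13. No test was made of these counts.

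Genes with a pair of signals nearest to those of a member, by distance on the log2 scale, were Zyg11b (175.9 and 48.6), Cdc25b and Arap2 (159.1 and 54.2) for Foxm1. For Bub1b they were Sdc4 (130.8 and 29.5, an _s probe set), Tbl3 (125.6 and 29.8) and Cep55, and for Cdc25b Zyg11b, Slc25a30 (185.1 and 54.8) and Foxm1. The measure spans only 2 arrays and uses signal levels, which depend on the affinity of each probe set, so nearness in it does not show equal transcript levels.

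Other groups of genes also differed between the clones, and 1 array per clone cannot show whether any of them varies with the members. Most measured markers of embryonic fibroblasts, the feeder cells of the cloning step, had a higher signal in D351. Of 32 such markers 7 had a named probe set and 6 were measured. D351 exceeded D16 at least 2-fold in 5, beside 9.49% of all measured genes. These were Sfrp1 (48.2 and 900.3), Prrx1 (149.3 and 546.8), Cd248 (238.9 and 564.0) and, as bounds, Aspn (3.6 and 177.4) and Col5a2 (12.4 and 60.1). Tcf4 was lower by that margin, as were 8.57% of all measured genes. It did not reach the margin with the median over its probe sets or with scaling to the spike controls. The summed signal of the 6 measured fibroblast markers was 997.2 in D16 and 2454.2 in D351, and no probe set of the list read 0. Sfrp1 alone gave 48.2 and 900.3 of these sums. The part of feeder cells in the cell cycle differences was not tested. By the 2-fold rule, 2 of 5 measured smooth muscle genes were higher in D351 and 0 lower, with a median log2 ratio of 0.63. Of all measured genes 9.49% were higher and 8.57% lower. The higher genes were Mylk (21.1 and 148.5, 7.04-fold) and Tpm1 (17.1 and 55.9, 3.27-fold), both near the floor in D16. With the median over probe sets 1 was higher and the list median was 0.02, since 2 of the 3 Tpm1 probe sets read -0.15 and 0.02. Of 2 endothelial genes 1 was higher (Flt1, a bound, which the mesoangioblast list also holds) and 1 lower (Nrp2, 54.8 and 18.7, 2.93-fold). Of 5 mesoangioblast markers 1 was higher and 3 lower, beside the same shares of all measured genes. The Flt1 and Gata4 ratios among them are bounds. With the high floor (53.5) 1 smooth muscle gene was higher, 1 mesoangioblast marker was lower and 0 higher, and 0 endothelial genes passed in either direction. Of all genes 7.12% were then higher and 6.34% lower. By a 3-fold rule 0 endothelial genes passed, and 0 mesoangioblast markers were higher (all genes: 3.6% higher and 2.78% lower). The 1 measured blood marker, Runx1, read 45.4 and 61.1.

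Bacterial and phage spike controls, which are added to the hybridisation mix and not made by the cells, were higher in D16 in 8 of 9 cases, by a median of 1.44-fold. When D351 was rescaled to make their median equal, a setting added after the values were seen, the median of all measured genes moved to 0.45, and 3.28% of genes had at least 2-fold less and 21.7% at least 2-fold more signal in D351. Under that scaling 6 members were still at least 2-fold lower, from -1.23 for Foxm1 to -1.97 for Depdc1b, and the members' median was -1.5, or 1.95 below that of all genes. Incenp had ratios of 0.80 and 0.18 on its probe sets. The medians of the mitosis (-0.43) and replication (-0.39) lists stayed below 0, with 9 and 2 genes still at least 2-fold lower, and those of the G2 to M switch (0.53), checkpoint partner (0.17) and G1 (0.04) lists turned above it.

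**Figure D4:**
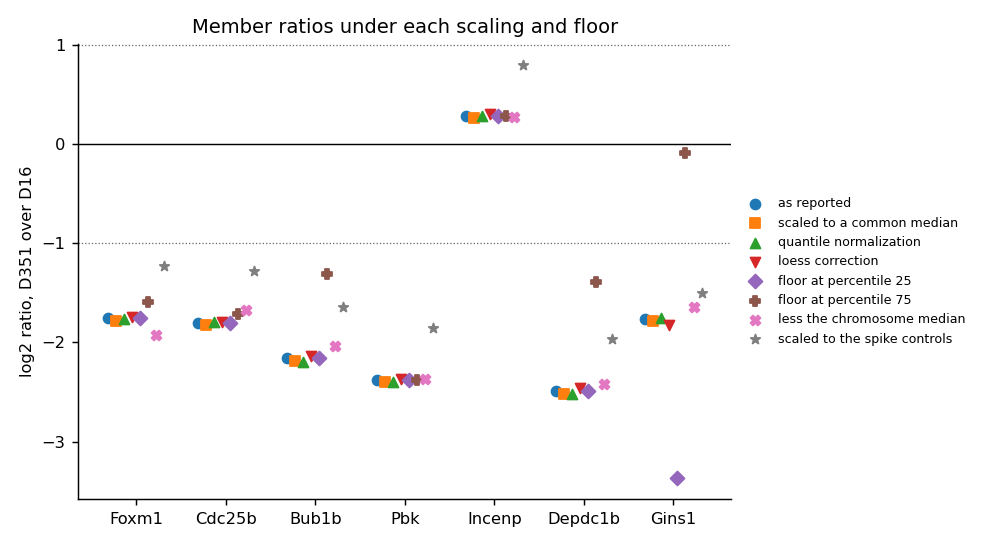
Log2 ratio of each member's brightest probe set under the reported setting, 3 other normalizations, 2 other floors, with the chromosome median taken off and with D351 scaled to the spike controls; dotted lines mark 2-fold. Foxm1, Cdc25b, Bub1b, Pbk and Depdc1b stay below -1 throughout, Incenp stays above 0, and Gins1 runs from -3.37 at the low floor to -0.09 at the high one.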

How the data were processed

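The series has 2 arrays, 1 for each clone, and 1 deposited table of 12477 probe sets. The deposited values are intensities on a linear scale, from 0 to 6716.8; the array software, background correction and presence calls are not given in the sources used here. From the values, both arrays had a trimmed mean of 40.0, so signals are relative to the bulk of each array, and sums were 653854 (D16) and 646285 (D351). Names came from GEO's platform annotation (10581 of the 12411 probe sets that are not controls had 1 symbol, 10550 of them matched to RefSeq GRCm38.p6). Values under the floor (pooled 50th percentile, 16.8) were raised to it before log2 ratios were taken; where 1 clone lay under it the ratio is a bound, and where both did none was given. A gene stands by its brightest probe set.

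With 1 array per clone no p-value was computed. The members, the lists and the settings were chosen with earlier results of these data known. Named genes are all members, up to 6 per list and direction past 2-fold, and the 3 genes nearest to Foxm1, Bub1b and Cdc25b. All others were chosen after their values were seen: Cd44, Eng, Itga4, Runx1, and the partner genes marked so in the text. Scripts were tested on simulated data. Python 3.11.15, numpy 2.4.6, pandas 2.3.3, statsmodels 0.14.6 and matplotlib 3.10.9 were used.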

Additional observations from a re-analysis of the deposited data

How the results depend on the processing

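Other settings were quantile normalization, scaling to equal medians, loess with a span of 0.3, a low floor (4.6, percentile 25) or a high one (53.5, percentile 75), 1.5-fold or 3-fold as the size rule, the median over probe sets, the chromosome median taken off, and, added after the values were seen, D351 scaled to the spike controls. The count of members lower in D351 was 6 in each setting that gives a count, except 5 with the high floor, where Gins1 is lost. Their median ran from -2.16 (low floor) to -1.39 (high floor). A count within 1.5 times, or a ratio within 1.5-fold, of the reported one was taken as kept. That held for 316 of 362 values, of which some, such as counts of 0, had little room to change. While 0 called ratios changed sign, some values under 2-fold did. With D351 scaled to the spike controls Incenp on 164272_at went from -0.35 to 0.18. The G2 to M switch median went from -0.09 to 0.53, that of the checkpoint partners from -0.35 to 0.17 and that of the G1 list from -0.48 to 0.04.

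At 1.5-fold, 22 mitosis, 9 replication, 5 G2 to M switch, 4 checkpoint partner and 3 G1 genes were lower in D351, and 3 G2 to M switch, 4 exit and 1 G1 gene higher, beside 20.4% lower and 19.3% higher of all measured genes. At 3-fold, 9 mitosis, 1 replication and 0 G2 to M switch genes were lower and 0 of the last were higher (all genes: 2.78% and 3.60%). With the high floor, 2 replication, 0 G2 to M switch and 0 checkpoint partner genes were lower, and 0 G2 to M switch genes higher (all genes: 6.34% and 7.12%). With the low floor 3 G2 to M switch and 2 checkpoint partner genes were lower (all genes: 11.5%). With D351 scaled to the spike controls 9 mitosis, 2 replication and 0 G2 to M switch genes were lower, and 1 mitosis, 4 G2 to M switch (median 0.53), 1 checkpoint partner, 5 exit and 1 G1 gene were higher (all genes: 3.28% lower and 21.7% higher). The size rules and floors change which genes can pass by construction; the cause of the spike control difference was not tested. With 1 array per clone, signals near the floor (Bub1b and Depdc1b in D351, Gins1, the second Pbk probe set) limit how closely a ratio is known.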
